A study of Mus musculus with 4 samples.

Results

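Antigen presentation genes are described here in cultured mouse bone marrow stromal cells with and without Cre. The 10 members were chosen by name, not by a threshold on values, as the genes of the count table with the symbol H2-K1, H2-D1, B2m, Tap1, Tap2, Tapbp, Psmb8, Psmb9, H2-Aa or Cd74. All 10 were found among 44788 genes. The cells came from C57BL/6J mice with loxP sites in both copies of Setd2 (Setd2 fl/fl), the gene of a histone H3 lysine 36 methyltransferase, and were at passage 2. They received a lentivirus with GFP, the control group, or with Cre recombinase, the knockout group, and then 2 µg/ml puromycin for 4 days. Each group had 2 RNA sequencing libraries, and all 4 share the floxed allele, the virus infection and the selection. The age of the mice and whether the libraries of a group were separate cultures are not given in the labels, so each p-value is set against library-to-library spread that could be technical alone. No library received Cre without a floxed Setd2, so effects of Cre itself and of the deletion cannot be told apart.

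Cells show samples of their own proteins to T cells on MHC class I molecules. The proteasome cuts proteins into peptides, the TAP transporter carries the peptides into the endoplasmic reticulum, and the loading complex places them on a class I heavy chain paired with beta-2-microglobulin. Inflammatory signals such as interferon gamma raise most of these genes and replace catalytic subunits of the proteasome by inducible ones, which makes the immunoproteasome. MHC class II molecules present material taken up from outside, are made mainly by macrophages, dendritic cells and B cells, and can be induced by interferon gamma in stromal cells.

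The libraries held 12371994 to 14315903 counts each, of which the members took 0.222% to 0.256%. Setd2 had 1400 and 1250 counts with GFP and 551 and 468 with Cre, a log2 fold change of -1.60 (standard error 0.08, adjusted p = 3.65e-15), so all 4 libraries match their labels. The counts cover the whole gene and not the floxed exons alone, so the remainder does not measure intact transcript. GFP replicate 2 stood apart by its 18S ribosomal RNA, 7.45% of its counts against 1.21% to 2.07% in the others. Of 11 stromal markers 10 were tested, 3 rose (Col1a1, Col1a2 and Thy1) and 1 fell (Cxcl12), with a median log2 fold change of -0.07. Over all tested genes 3.74% rose and 3.22% fell. The summed level of the stromal markers was 15265 and 15154 CPM with GFP and 19119 and 20166 CPM with Cre. Most of this sum came from Col1a1 (6881 and 6910 CPM with GFP, 9641 and 10160 with Cre) and Col1a2 (7164 and 7069, then 8439 and 8923). Macrophage markers were present as well: 15 of 15 were detected, with a summed level of 2292 and 2374 CPM with GFP and 2700 and 2687 CPM with Cre. Most of the macrophage sum came from Lyz2 (1388 and 1409 CPM with GFP, 1685 and 1697 with Cre). CPM values are counts divided by the TMM-scaled library size. In these bulk libraries fewer cells of a type and less RNA per cell cannot be told apart.

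None of the members was called as changed between Cre and GFP. Of the 10, 9 passed the filter on low counts, and 0 of these 9 had an adjusted p under 0.05 in edgeR, where 6.97% of all 14483 tested genes did. At an unadjusted p under 0.05 in edgeR there were 2, Tapbp higher and Psmb9 lower with Cre, where 20.9% of all tested genes passed that limit. In DESeq2 0 members and 10.1% of all genes passed it. DESeq2 called 0 members and 376 of the 12517 genes to which it gave an adjusted p, and limma-voom called 0 members and 7.19% of all genes. The same 0 was found with scaling by library size alone (3.66% of all genes called) and with the replicate number as a block (5.72%). The median log2 fold change of the 9 was -0.06, against -0.0045 over all tested genes. The groups did not overlap for 6 of the 9 members, 1 with Cre above and 5 with Cre below, while 24.5% of all tested genes had Cre above and 25.5% had Cre below. The plot of members by library shows how close the 4 libraries lay for the class I genes.

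**Figure D1:**
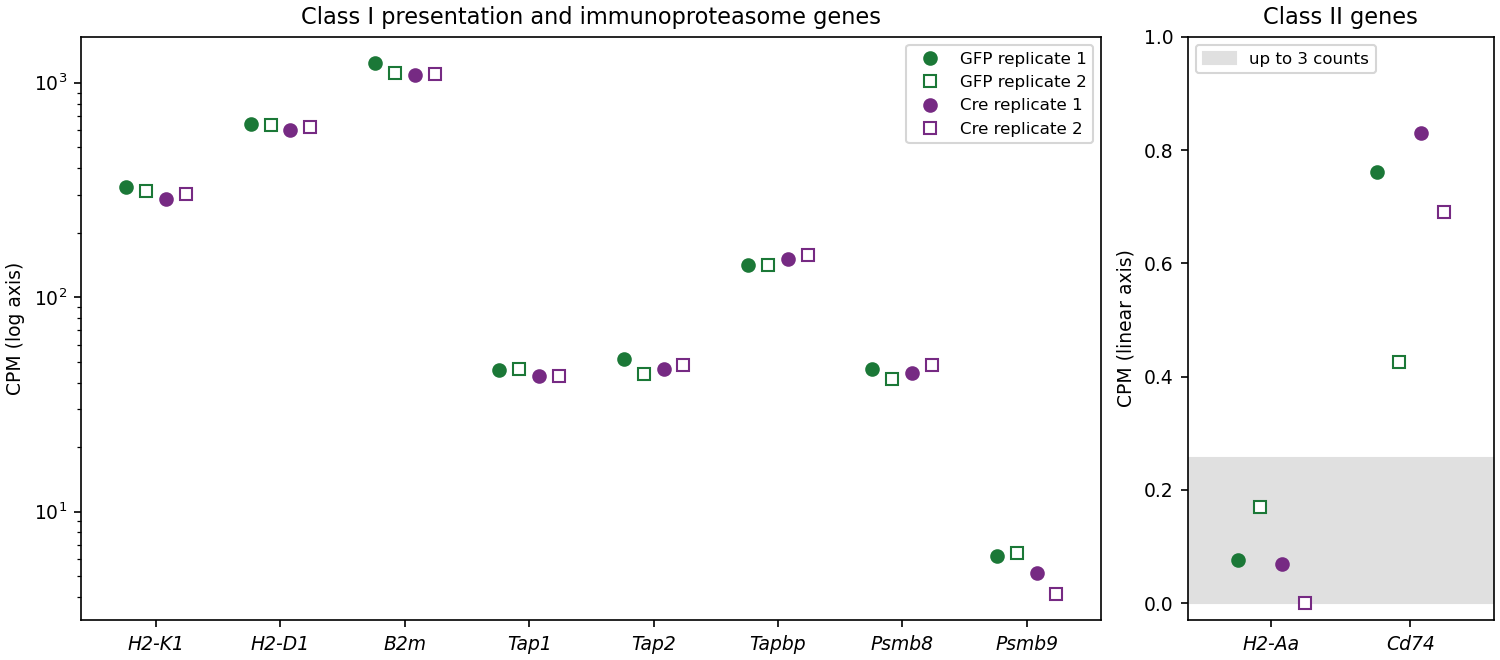
CPM of the 10 members in each of the 4 libraries, on a log axis for the 8 class I and immunoproteasome genes and on a linear axis for the 2 class II genes. Circles are replicate 1 and squares replicate 2, green is GFP and purple is Cre, and the grey band marks values up to 3 counts (0.255 CPM in the shallowest library). B2m stood between 1090 and 1232 CPM, and H2-Aa lay within the band in all 4 libraries.

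Across the members, levels per length spanned from B2m to H2-Aa. Divided by the length of the longest coding transcript, B2m had 1320 ± 76.3 CPM per kilobase, H2-D1 298 ± 8.11, H2-K1 190 ± 9.85 and Tapbp 51.0 ± 2.82 (mean ± SD over the 4 libraries). Psmb8 followed with 27.7 ± 1.67 CPM per kilobase, Tap1 with 15.1 ± 0.625, Tap2 with 13.8 ± 0.978 and Psmb9 with 4.06 ± 0.771. Cd74 and H2-Aa came last with 0.480 ± 0.125 and 0.0700 ± 0.0620 CPM per kilobase. Of the neighbours in this order the ranges over libraries overlapped for Tap1 and Tap2, and for no other pair. Within each of the 4 libraries Tap1 stood above Tap2 by transcript length, but by coding length the ratio of Tap1 to Tap2 was 0.862 and 1.03 with GFP and 0.903 and 0.864 with Cre, so the order of these neighbours depends on the length used.

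The classical heavy chains H2-K1 and H2-D1, which bind the peptide, were abundant and were not called. H2-K1 lies on chromosome 17 from 33996012 to 34000619 and H2-D1 from 35263094 to 35267497 (GRCm38). H2-K1 had 325 and 314 CPM in the GFP libraries and 288 and 303 CPM in the Cre libraries, so both Cre values lay below both GFP values. Its log2 fold change was -0.11 (95% interval -0.24 to 0.02, adjusted p = 0.313). H2-D1 had 644 and 633 CPM with GFP and 604 and 625 CPM with Cre, again with no overlap. Its log2 fold change was -0.06 (95% interval -0.18 to 0.07, adjusted p = 0.667). The intervals include no change for both genes and, at their lower ends, reach a level of 0.844 times control for H2-K1 and 0.881 times for H2-D1.

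The heavy chains are close copies of each other, which bears on how reads are assigned. The coding sequences of H2-K1 and H2-D1 were identical at 91.5% of 1080 aligned bases. The most different window of 90 bases is shown with the 17 differing bases in capitals, and below it the longest run of 91 bases that both genes share, in which a read cannot tell them apart. Sequences are those of GENCODE M21, numbered from the first coding base.
H2-K1 (coding bases 480 to 569): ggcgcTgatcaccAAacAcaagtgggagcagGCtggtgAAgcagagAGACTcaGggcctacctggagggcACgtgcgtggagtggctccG
H2-D1 (coding bases 489 to 578): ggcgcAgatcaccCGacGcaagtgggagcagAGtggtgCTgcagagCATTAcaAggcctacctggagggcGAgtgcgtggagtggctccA
H2-K1 and H2-D1 (coding bases of H2-K1 738 to 828): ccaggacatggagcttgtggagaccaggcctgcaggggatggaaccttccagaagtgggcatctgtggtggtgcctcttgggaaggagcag
Of all windows of 50 bases in the longest transcript, 8.79% for H2-K1 and 14.3% for H2-D1 also occur in a transcript of another gene. How reads with several equal matches were handled is not stated in any source used here, so the heavy chain counts are uncertain to that extent.

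B2m, the gene of beta-2-microglobulin, the light chain shared by all class I molecules, had the highest count of the members. It lies on chromosome 2 from 122147687 to 122153082. It had 1232 and 1113 CPM with GFP and 1090 and 1104 CPM with Cre. GFP replicate 1 stood above the other 3 libraries, and GFP replicate 2 was close to the Cre pair. The log2 fold change was -0.10 (95% interval -0.23 to 0.04, adjusted p = 0.423). Without GFP replicate 1 it was -0.02, and without GFP replicate 2 it was -0.17.

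Other class I heavy chains, from the Q and T regions of the mouse MHC and outside it, included genes that were called. Of 16 such genes 12 were tested, 4 fell (H2-Q4, H2-Q6, H2-Q7 and H2-T10) and none rose, with 3.22% of all tested genes falling. The median of the 12 was -0.07. H2-Q6 had 135 and 123 counts with GFP and 90 and 101 with Cre, a log2 fold change of -0.65 (standard error 0.14, adjusted p = 0.00409). H2-Q7, which like H2-Q6 lies in the Qa-2 region, had 94 and 99 counts against 69 and 68 (-0.71, standard error 0.17, adjusted p = 0.00657). For both genes every Cre library lay below every GFP library.

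H2-Q4 was the most abundant of the 4, with 37.0 and 38.3 CPM under GFP and 28.0 and 30.5 CPM under Cre (log2 fold change -0.36, adjusted p = 0.00708). H2-T10, which RefSeq lists as a transcribed pseudogene, went from 8.86 ± 0.490 to 5.74 ± 0.494 CPM (mean ± SD, n = 2 each; log2 fold change -0.63, adjusted p = 0.00969). H2-T23, the gene of Qa-1, which presents signal peptides to receptors of natural killer cells, had 16.1 ± 1.56 and 18.7 ± 0.471 CPM (log2 fold change 0.22, adjusted p = 0.258). DESeq2 called none of the 4 falls, and library size alone gave 3 of them. The 95% intervals of H2-Q6 (-0.94 to -0.36) and H2-Q7 (-1.05 to -0.37) lay wholly below that of H2-K1 and that of H2-Q4 (-0.54 to -0.19) overlapped it, although the difference between these genes was not tested. Between 24.3% and 42.9% of the windows of 50 bases in these 4 transcripts occur in other genes, and H2-Q6 and H2-Q7 are identical at 95.5% of 977 coding bases, so their counts are uncertain and not independent.

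Promoters of the 3 Q-region heavy chains that fell and of B2m are shown with matches to short runs of letters. Of these runs B2m shares only CCAAT with the classical heavy chains H2-K1 and H2-D1. Each is the 200 bases before the first start that the RefSeq promoter table lists on GRCm38.p6, 5′ to 3′ on the gene's strand. The gene limits in RefSeq can lie outside that start, as for H2-Q7 and, among the windows searched but not printed, H2-K1. Capitals mark matches, on either strand, to GGGGATTCC (the kappaB run of the class I enhancer), TTTCACTTC (its interferon response run), GAAANNGAA (an interferon repeat), TGATGACG (the X2 run) and CCAAT. The letters were chosen after the sequences were seen.
H2-Q4 (chr17:35379417-35379616, plus strand): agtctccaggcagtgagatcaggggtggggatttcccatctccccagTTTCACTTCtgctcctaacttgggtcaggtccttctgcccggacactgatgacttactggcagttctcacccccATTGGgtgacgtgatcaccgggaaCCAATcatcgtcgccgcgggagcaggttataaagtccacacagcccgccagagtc
H2-Q6 (chr17:35424650-35424849, plus strand): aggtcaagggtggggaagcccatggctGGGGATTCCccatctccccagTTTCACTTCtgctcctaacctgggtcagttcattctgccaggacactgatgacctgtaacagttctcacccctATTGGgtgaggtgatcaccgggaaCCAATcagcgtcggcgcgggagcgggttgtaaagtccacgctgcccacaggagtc
H2-Q7 (chr17:35438955-35439154, plus strand): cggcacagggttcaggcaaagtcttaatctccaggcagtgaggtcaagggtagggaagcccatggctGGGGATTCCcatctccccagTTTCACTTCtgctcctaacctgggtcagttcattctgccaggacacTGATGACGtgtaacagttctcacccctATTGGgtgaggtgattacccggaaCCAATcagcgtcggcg
B2m (chr2:122147487-122147686, plus strand): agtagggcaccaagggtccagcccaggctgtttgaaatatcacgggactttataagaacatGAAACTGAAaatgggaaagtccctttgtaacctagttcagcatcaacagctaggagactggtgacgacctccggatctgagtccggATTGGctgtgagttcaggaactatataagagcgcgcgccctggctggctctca
TTTCACTTC stands in all 5 heavy chain windows searched (H2-K1, H2-D1, H2-Q4, H2-Q6 and H2-Q7) and in 0.333% of 27025 mouse promoters of the same length, and GGGGATTCC stands in 4 of the 5, all but H2-Q4, and in 0.155% of promoters. TGATGACG was found in H2-D1 and H2-Q7 and in 0.588% of promoters. CCAAT, on either strand, was found in all 6 windows and in 30.0% of promoters. GAAANNGAA was found in the B2m window and in 5.62% of promoters. GGGGATTCC was present in H2-Q6 and H2-Q7, which fell, and in H2-K1 and H2-D1, which were not called. Its exact letters were absent from H2-Q4, which fell and has a T there in place of the first C. Only exact letters were searched, so related runs with other letters, in H2-Q4 or B2m, are not counted. H2-T10 and H2-T23 were not among these windows, and a link between the letters and the falls was not tested. Matches are a description of letters and show no binding. The heavy chains are close copies and the letters were chosen from such windows, so the shares beside all promoters test no enrichment.

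**Figure D2:**
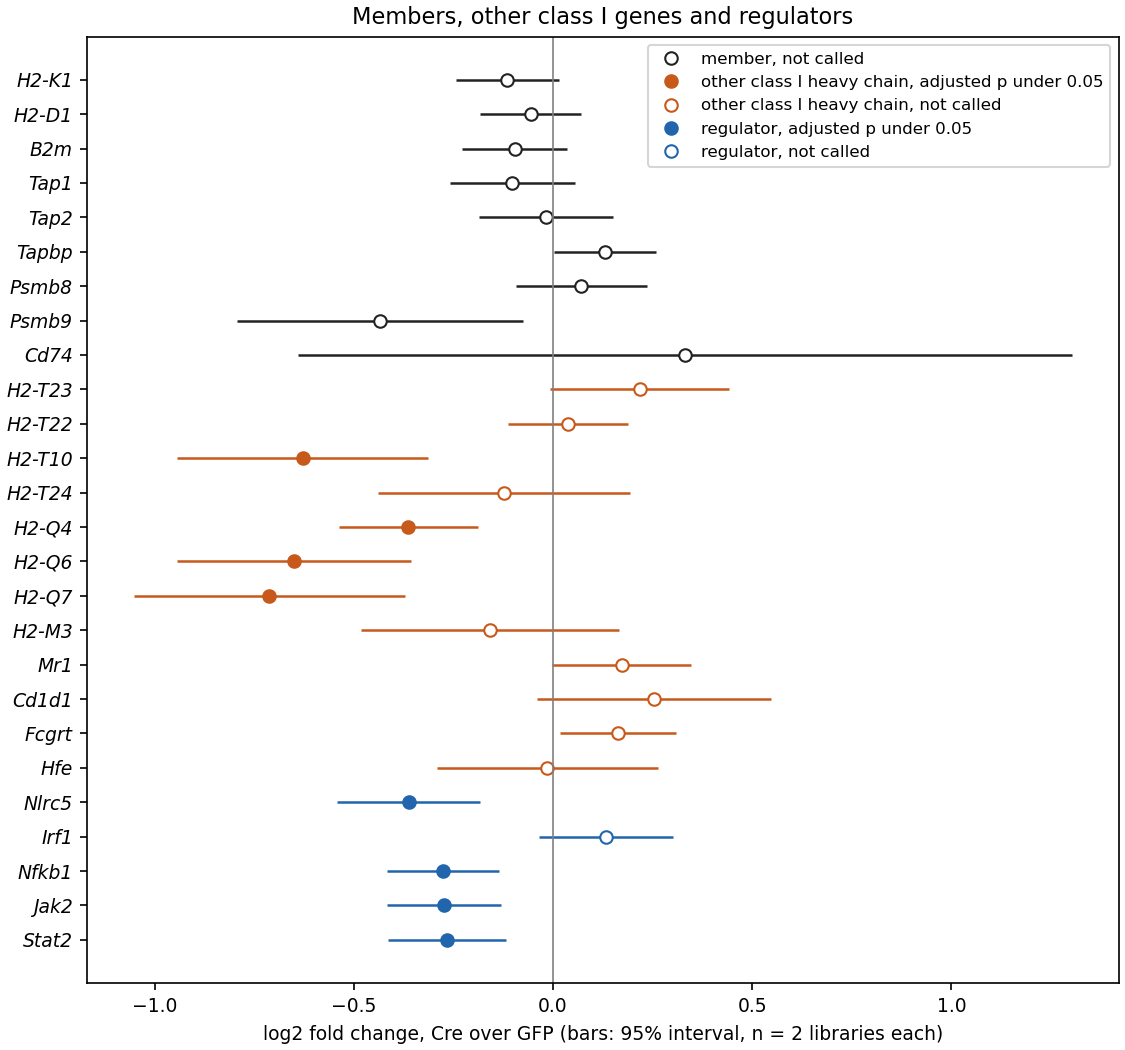
Log2 fold change of Cre over GFP with its 95% interval for the 9 tested members (black), the 12 other tested class I heavy chains (orange) and 5 regulators (blue). Filled points had an adjusted p under 0.05. The member points lie between -0.43 and 0.33 and are all open, while H2-Q4, H2-Q6, H2-Q7 and H2-T10 are filled and lie between -0.71 and -0.36.

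The peptide transporter is a dimer of the products of Tap1 and Tap2, and neither was called. Tap1, on chromosome 17 from 34187556 to 34197225, had 45.9 and 46.4 CPM with GFP and 42.9 and 43.1 CPM with Cre. The replicates were close and the groups did not overlap, but the log2 fold change of -0.10 did not pass (95% interval -0.26 to 0.05, adjusted p = 0.489). Tap2, from 34204479 to 34216321, had 51.6 and 43.7 CPM with GFP and 46.1 and 48.3 CPM with Cre. Here both Cre libraries lay between the GFP libraries, and the log2 fold change was -0.02 (95% interval -0.18 to 0.15, adjusted p = 0.939). Exons of other annotated genes, among them Gm20496, cover 18.5% of the exon bases of Tap2.

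Tapbp encodes tapasin, which bridges the transporter and the heavy chain during loading, and it was the one class I member with higher values in both Cre libraries. It lies on chromosome 17 from 33919478 to 33929290. It had 141 and 141 CPM with GFP and 151 and 158 CPM with Cre. The log2 fold change was 0.13 (95% interval 0.00 to 0.26, unadjusted p = 0.0449, adjusted p = 0.226). Exons of Gm19412 and Zbtb22 share 29.0% of its exon bases, so its count is uncertain.

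Partners of tapasin and the peptide trimming enzymes mostly did not pass. Of 16 other loading and trimming genes, all tested, 1 rose and 1 fell, beside 3.74% and 3.22% of all tested genes, and their median was -0.02. Thop1, the gene of a cytosolic oligopeptidase that degrades peptides, rose from 47.3 ± 2.11 to 58.3 ± 0.642 CPM (log2 fold change 0.30, adjusted p = 0.0103). Lnpep, an aminopeptidase gene linked to cross-presentation, fell with 83.4 and 93.7 CPM under GFP and 77.6 and 55.3 CPM under Cre (log2 fold change -0.41, adjusted p = 0.00582). The fall of Lnpep rested on Cre replicate 2: without it the log2 fold change was -0.19 (adjusted p = 0.414), without Cre replicate 1 it was -0.67, and robust dispersion estimates gave an adjusted p of 0.350. The chaperone gene Calr had 1269 and 1211 CPM under GFP and 1339 and 1345 CPM under Cre (a log2 difference of 0.11, adjusted p = 0.297). Erap1, the trimming aminopeptidase of the endoplasmic reticulum, had 54.2 ± 0.724 and 50.3 ± 2.20 CPM (log2 fold change -0.11, adjusted p = 0.449).

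The immunoproteasome subunit genes Psmb8 and Psmb9 differed from each other in level, and neither was called. Psmb8, on chromosome 17 from 34198195 to 34201454, had 46.1 and 41.7 CPM with GFP and 44.3 and 48.1 CPM with Cre, with overlapping groups (log2 fold change 0.07, 95% interval -0.09 to 0.23, adjusted p = 0.678). The Psmb8 value was 0.15 without GFP replicate 1 and 0.0041 without GFP replicate 2, so its direction is not resolved. Psmb9, from 34182030 to 34187330, had 82 and 75 counts with GFP and 75 and 60 with Cre, which are 6.24 and 6.39 against 5.19 and 4.15 CPM. Both Cre values lay below both GFP values. The log2 fold change of Psmb9 was -0.43 (95% interval -0.79 to -0.07, unadjusted p = 0.0197, adjusted p = 0.140). It was the largest negative value among the members, at their third-lowest count, and it ranged from -0.28 without Cre replicate 2 to -0.60 without Cre replicate 1.

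Psmb9 and Tap1 are neighbours that are transcribed away from each other, with 225 bases between their RefSeq starts. Read on the plus strand, CCAAT starts at base 4 of that region, next to Psmb9, and the GC box GGGCGG, found in 31.3% of the 27025 promoters, at base 50. GGGGATTCC, TTTCACTTC, GAAANNGAA and TGATGACG were not found in these letters. The ratio of Psmb9 to Tap1 in counts per kilobase was 0.297 and 0.301 in the GFP libraries and 0.264 and 0.210 in the Cre libraries. Both Cre ratios were below both GFP ratios, and the difference was not tested. In GENCODE M21 exons of Tap1 cover 5.79% of the exon bases of Psmb9, and no source used here says whether strand was used in counting.

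The inducible subunits can be set against the constitutive subunits whose place they take. In counts per kilobase, Psmb8 stood at 0.315 and 0.294 times Psmb5 with GFP and at 0.293 and 0.311 times with Cre. By coding length the mean ratio was 0.528 with GFP and 0.523 with Cre, and 57.1% of the windows of 50 bases of Psmb5 occur in other genes, so the size of this ratio is uncertain. Psmb10, the other inducible catalytic subunit, stood at 0.214 and 0.262 times Psmb7 with GFP and 0.235 and 0.251 times with Cre. Those 2 ratios overlapped between the groups. Psmb9 stood at 0.0369 and 0.0364 times Psmb6 with GFP and 0.0269 and 0.0200 times with Cre, without overlap (means by coding length 0.0675 and 0.0431). This difference was not tested, and it rests on 60 to 82 Psmb9 counts per library. Of single tested genes, 25.5% had both Cre values below both GFP values, and no such share was taken for ratios. Psmb6 itself rose, from 102 ± 2.50 to 118 ± 6.25 CPM (log2 fold change 0.22, adjusted p = 0.0393). It was the one call among 17 genes of the constitutive core and its partners, whose median was 0.07, beside 6.97% of all tested genes called. With the replicate block, with library size alone, without a low-count filter or in DESeq2 Psmb6 was not called. Psmb5 (0.09, adjusted p = 0.516) and Psmb7 (0.07, adjusted p = 0.661) did not pass. Of the other inducible genes, Psmb10 stood at 0.11 (adjusted p = 0.517), and the activator genes Psme1 and Psme2 at 0.07 (adjusted p = 0.694) and 0.14 (adjusted p = 0.393), with 0 of 3 called.

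**Figure D3:**
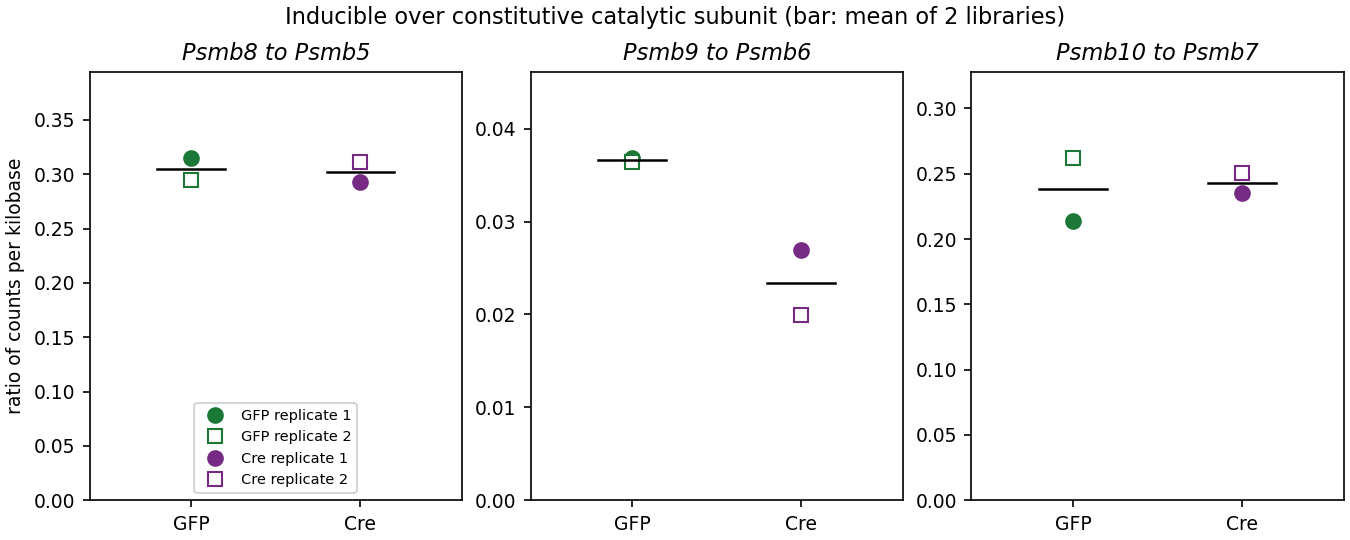
Ratio of an inducible to the matching constitutive catalytic subunit in counts per kilobase of the longest coding transcript, per library, with the mean of 2 libraries as a bar and each axis starting at 0. The ratios of Psmb8 to Psmb5 lie between 0.293 and 0.315 and those of Psmb10 to Psmb7 between 0.214 and 0.262 in both groups, while Psmb9 to Psmb6 lies near 0.0366 with GFP and near 0.0234 with Cre. Differences between the groups were not tested.

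The class II members were close to the limit of detection. H2-Aa, the alpha chain gene of the class II molecule I-A on chromosome 17 from 34282744 to 34287823, had 1 and 2 counts with GFP and 1 and 0 with Cre. All 4 values are at or under the floor of 3 counts (0.207 to 0.255 CPM), the gene was below the filter, and no fold is given. Cd74, the invariant chain gene that guides class II molecules to the endosome, had 10 and 5 counts with GFP and 12 and 10 with Cre. The groups overlapped, and the log2 fold change of 0.33 had a 95% interval from -0.64 to 1.30 (adjusted p = 0.750). It was 0.82 without GFP replicate 1 and 0.0011 without GFP replicate 2. As a ratio to control the interval for Cd74 runs from 0.642 to 2.47, so neither a fall nor a rise within it is excluded. Floors and count limits cover counting error only.

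Other class II chain genes had low counts, while lysosomal enzymes of the class II pathway were abundant and 4 rose. H2-Ab1, the beta chain partner of H2-Aa, had 58 and 63 counts with GFP and 69 and 68 with Cre (log2 fold change -0.04, adjusted p = 0.939), and H2-Eb1 had 13 and 6 against 13 and 7. H2-Ab1 was therefore detected where H2-Aa was not above the floor. Ciita, the master regulator of class II genes, had 5 and 4 counts with GFP and 5 and 7 with Cre and was not tested. Of the 16 class II pathway genes outside the members, 12 were tested, 4 rose and none fell, with a median of 0.16 and with 3.74% of all tested genes rising. These 4 were Ifi30, Ctsd, Ctsl and Lgmn, genes of lysosomal enzymes, and which cells in the culture expressed them was not tested.

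Ifi30, the gene of a lysosomal thiol reductase that unfolds antigens, had 41.3 and 39.9 CPM with GFP and 53.7 and 58.3 CPM with Cre, a log2 difference of 0.46 (adjusted p = 2.04e-04). Ctsd, the cathepsin D gene, went from 2732 ± 130 to 3646 ± 137 CPM (log2 fold change 0.42, adjusted p = 2.82e-05). Ctsl (0.29) and Lgmn (0.25), the genes of cathepsin L and legumain, rose too. DESeq2 also called these 4 rises. Exons of Gm49369 cover 34.4% of the exon bases of Ctsd, and those of 2 other genes 26.8% of Ctsl, so these counts are uncertain. Ctss, the cathepsin gene that cuts the invariant chain, did not pass (log2 fold change 0.12, adjusted p = 0.292).

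Among the markers of cells that carry class II, only macrophage markers were called. Of the 15 macrophage markers, 5 rose (Cd68, Lyz2, C1qb, Mrc1 and Tyrobp), 1 fell (Emr1, the gene of F4/80) and 9 did not pass, with a median of 0.16, beside 3.74% of all tested genes rising and 3.22% falling. Lyz2, the lysozyme gene, had 18237 and 16541 counts with GFP and 24349 and 24555 with Cre (log2 fold change 0.27), and Emr1 had 2525 and 2350 against 2315 and 2305 (-0.30). Dendritic cell markers summed to between 7.61 and 9.06 CPM over 8 genes, and 4 of them had at most 3 counts in any library, with Cd209a at 0. Of the 3 dendritic cell markers tested, 0 were called. B cell markers summed to between 0.381 and 0.829 CPM, with Ms4a1 at 0, and 0 of them were tested. Of 6 T and NK cell markers Cd3e, Cd3d and Ncr1 were at 0, and Cd8a and Klrb1c had at most 1 count. Cd4 rose, with 72 and 57 counts with GFP and 124 and 128 with Cre (log2 fold change 0.75, adjusted p = 0.00270 in edgeR). Of the endothelial markers 0 of 4 tested were called. The part of the macrophage markers in the levels and rises of the class II pathway genes was not tested.

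Among the regulators of MHC genes the falls included Nlrc5, the transactivator of class I genes. Nlrc5 had 32.9 and 32.6 CPM with GFP and 24.9 and 26.1 CPM with Cre, with close replicates and no overlap. Its log2 fold change was -0.36 (standard error 0.09, adjusted p = 0.00907). H2-K1, H2-D1, B2m, Tap1, Tap2 and Psmb9 stood at -0.11, -0.06, -0.10, -0.10, -0.02 and -0.43, and none of them passed. Tapbp, Psmb8 and H2-T23 went the other way, at 0.13, 0.07 and 0.22, and did not pass either. The heavy chain genes H2-Q4, H2-Q6, H2-Q7 and H2-T10 were called as falling, at -0.36, -0.65, -0.71 and -0.63. A link between Nlrc5 and any of these genes was not tested. Of 26 regulators 24 were tested, 4 fell and none rose, with a median of -0.04, beside 3.22% of all tested genes falling and 3.74% rising.

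The other falls were those of the signal transducers Jak2 (-0.27, adjusted p = 0.0129) and Stat2 (-0.27, adjusted p = 0.0217) and of Nfkb1 (-0.28, adjusted p = 0.0109), which encodes the p105 precursor of NF-kappaB p50. Irf1, a direct activator of class I and immunoproteasome genes, had 44.4 ± 5.18 and 48.8 ± 1.86 CPM (log2 fold change 0.13, adjusted p = 0.376). The interferon gamma gene Ifng had 0 counts in all 4 libraries. None of these 4 falls was called by DESeq2 or with scaling by library size alone.

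**Figure D4:**
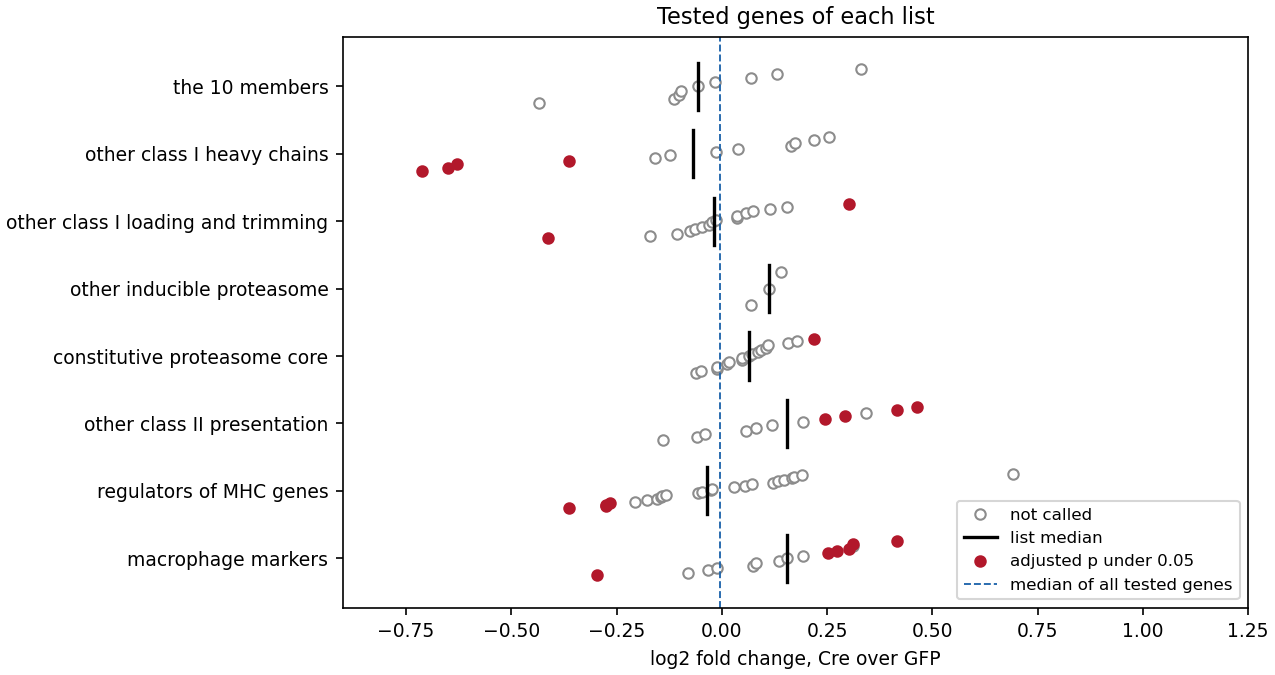
Log2 fold change of Cre over GFP for each tested gene of the members, 6 lists of related genes and the macrophage markers. Red points had an adjusted p under 0.05, black bars are list medians and the dashed line is the median of all tested genes. The members show 0 red points, the other class I heavy chains 4 to the left and the other class II pathway genes 4 to the right.

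Calls were lost when a GFP library was left out, and the folds moved little for some genes and more for others. Beside Setd2, 15 genes named here from the member-related lists were called, and 0 of them were called without GFP replicate 1 or without GFP replicate 2, while none changed sign. Nlrc5 stood at -0.36 and -0.37, H2-Q6 at -0.66 and -0.64 and Ctsd at 0.37 and 0.47 on the log2 scale without GFP replicate 1 and without GFP replicate 2. In the same order Ctsl stood at 0.37 and 0.22, Lnpep at -0.50 and -0.33 and H2-Q7 at -0.83 and -0.59. Setd2 was called without GFP replicate 1 (adjusted p = 0.0417 in edgeR) and not without GFP replicate 2 (adjusted p = 0.124), at -1.59 both times. The markers were not refitted in this way. EdgeR called 0.0803% of all tested genes without GFP replicate 1. Without GFP replicate 2 it called 0 genes of any kind (0% of 15034 tested), with 2197 at an unadjusted p under 0.05.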

How the data were processed

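Per the labels' protocols, a TruSeq kit and 1 µg of input RNA were used for each library. The submitters' processing notes name HISAT2 and the build GRCm38. The authors deposited raw counts per gene as whole numbers; no source used here states the counting program, its annotation and strand setting, or the aligner version. Counts of 4 libraries (2 GFP, 2 Cre) were tested with edgeR 4.0.16 in R 4.3.3: filterByExpr (minimum count 10, total 15), TMM scaling, quasi-likelihood test of Cre against GFP with no covariate, Benjamini-Hochberg adjustment over 14483 genes, threshold 0.05. The common biological coefficient of variation was 4.73%. Intervals are 95% and rest on the F statistic. Alternatives used DESeq2 1.42.0, limma-voom (limma 3.58.1), other scalings, filters and dispersions, the replicate number as a block, and each library left out. The test was checked on simulated counts. Lengths, exon overlap and coding sequence came from GENCODE M21, and positions and promoters from RefSeq on GRCm38.p6, where 8 of 10 members had a promoter. The members and lists were chosen with earlier results of these data known. Named genes were all members, 16 genes chosen by role (1 of which is not reported here), and up to 4 called genes per related list whose mean reached 1 CPM; other list genes named to complete a count or for context (Ctss, Ifng and cell type markers) were chosen after their values were seen.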

Additional observations from a re-analysis of the deposited data

How the results depend on the processing

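With every alternative, 0 members were called, and the smallest adjusted p of a member was 0.118 (Psmb9, robust dispersion). The direction held for 8 of the 9 tested members; the log2 fold change of Tap2 was 0.013 with library size alone and ranged from -0.13 to 0.11 without one library, above 0 without GFP replicate 1 and (0.02) without Cre replicate 1. Of other named genes without a call, the sign turned when one library was left out for Psme1 (range -0.056 to 0.19, negative without Cre replicate 2), Psmb7 (-0.048 to 0.20, negative without GFP replicate 2), H2-Ab1 (-0.18 to 0.10, positive without GFP replicate 2) and H2-Eb1 (-0.64 to 0.43, positive without GFP replicate 1 and, at 0.24, without Cre replicate 2). The number of called genes was 1009, and 530 with library size alone, 376 in DESeq2, 30 without a low-count filter, 477 at an adjusted p of 0.01, and between 0 and 516 without one library; the cause was not tested. Of the 15 called genes named beside Setd2, 4 were called in DESeq2 (Ctsd, Ifi30, Ctsl and Lgmn), 7 with library size alone, 0 without a low-count filter, 5 without Cre replicate 1 and 7 without Cre replicate 2, and none changed sign. With the replicate block 829 genes and 0 members were called, and Psmb6 was the one named call lost. Libraries with the same number did not deviate together (correlation -0.0089 over 14483 genes), so they share a number and no pairing was used. With coding length in place of transcript length the subunit ratios were 0.528 (GFP) and 0.523 (Cre) for Psmb8 to Psmb5, 0.0675 and 0.0431 for Psmb9 to Psmb6, and 0.273 and 0.279 for Psmb10 to Psmb7, since the coding share of these transcripts differs. Depth limits Psmb9 (60 to 82 counts) and Cd74, and allows no comparison for H2-Aa. A library left alone in a group is assumed to vary like the other group.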
